A study of Sus scrofa domesticus and Sus scrofa with 18 samples.

Results

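The spleen of the Rongchang pig, a Chinese domestic breed, was compared between its fetal state and adulthood. The comparison used 6 of the 18 libraries of the series: 3 from fetuses at 55 days before birth (E55d) and 3 from pigs aged 2 years (A2Y), chosen by their labelled stage alone. The study took 3 female pigs at each stage, and no treatment or genetic change is described for any group. Whole spleen RNA was sequenced, so that levels are those of a mixture of cells, and a lower level from fewer cells of a type and from less RNA per cell cannot be told apart. The other 12 libraries, from newborn pigs (B0d), pigs 30 days after weaning (W30d), pigs aged 180 days (A180d) and Wild Boars aged 2 years (WB), enter the estimate of the spread and are shown only where they place a fetal or adult level in the course. The 3 E55d columns are numbered 1, 5 and 6 and are named here by those numbers.

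The mammalian spleen starts as a mesenchymal bud, whose identity is set by transcription factors such as TLX1 and NKX2-3, and for part of fetal life it houses developing red cells and platelet precursors. The adult organ consists of red pulp, where macrophages remove old red cells and recover their iron, and white pulp, where T and B cells are held in zones by chemokines, all within a capsule and trabeculae of smooth muscle and fibres. The values describe both ends of this course in 1 breed, in protein-coding genes and in long non-coding RNAs (lncRNAs). Levels are given as deposited, log2(FPKM+1), where FPKM is the number of sequenced fragments per kilobase of transcript, relative to the mapped fragments of the library. Changes are A2Y minus E55d on that scale, which understates the change of genes with low levels. The tissue label was met in all 6 libraries: TLX1 lay at 3.93, 3.6 and 4.07 at E55d and at 3.33, 3.16 and 3.26 at A2Y, and NKX2-3 between 2.80 and 3.16.

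Of 12913 protein-coding genes tested, 7551 (58.5%) differed between E55d and A2Y at an adjusted p of at most 0.05, of which 4942 (38.3% of those tested) rose and 2609 (20.2%) fell. Among the genes that rose, 690 rose at least 4-fold and 33 at least 32-fold. Among those that fell, 339 fell at least 4-fold and 14 at least 32-fold. The median change over all genes was 0.23. When the libraries were brought to a common level by the median of their gene ratios, the median moved by 0.21 to 0.021, and the counts became 3772 (29.2%) and 3778 (29.3%), so that the share of calls that rose went from 65.4 to 49.96%. The excess of rises over falls therefore depends on the scaling, and changes below are to be read against that shift. Counts within each gene list below are to be read against the 38.3% of all genes that rose and the 20.2% that fell. One identifier without a symbol, ENSSSCG00000018700, took from 36.9 to 43.9% of the summed FPKM at E55d and from 41.3 to 53.6% at A2Y, and its part in the levels of the other genes was not tested.

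**Figure D1:**
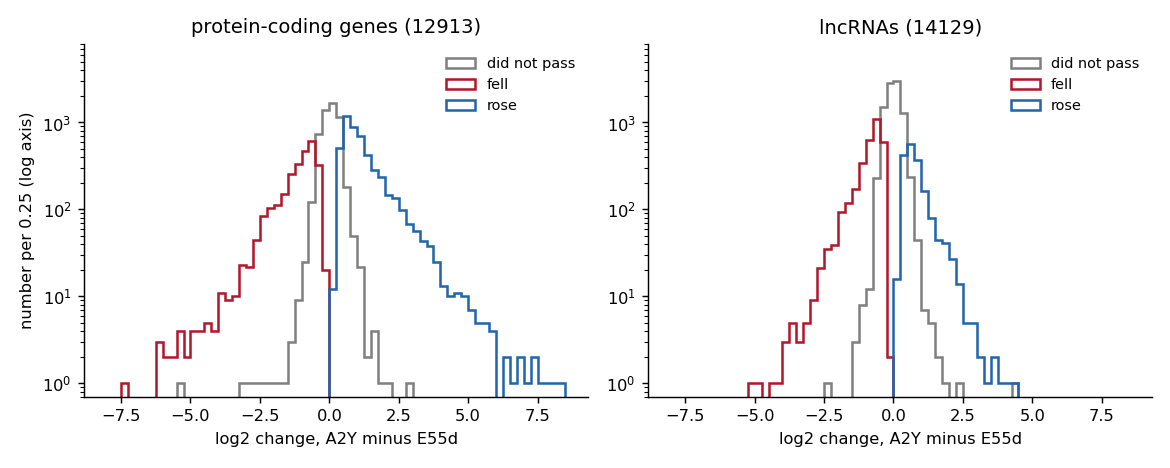
Number of protein-coding genes (left) and lncRNAs (right) by log2 change from E55d to A2Y, in steps of 0.25 and on a log count axis, with lines for features that fell, rose or did not pass. Protein-coding genes reached changes from -7.36 to 8.38, and lncRNAs from -5.18 to 4.29.

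Genes of the red cell lineage were among the largest falls. Of the 10 measured members of the erythroid list, 9 fell, none rose, and the median change was -4.03, against 0.23 over all genes. SLC4A1, the band 3 anion exchanger of the red cell membrane, lay at 8.07, 7.90 and 7.63 at E55d and at 0.36, 0.25 and 0.91 at A2Y. This is 234 ± 35.0 against 0.450 ± 0.374 FPKM (SD, n = 3 each) and a change of -7.36 ± 1.13 (SE), with an adjusted p of 3.8e-05 in limma, the most negative of all genes tested. RHAG, the Rh-associated membrane glycoprotein, went from 6.68, 6.60 and 6.14 to 0.46, 0.27 and 0.79. RHCE, which carries Rh antigens, changed by -6.10 (adjusted p = 0.00035), and EPB42, the membrane protein 4.2, by -4.85 (adjusted p = 0.00059). In all 4 membrane genes every fetal library was far above every adult one. The largest falls were picked among genes without overlap of the groups, so that this follows in part from the choice. Over all genes tested the groups did not overlap in 71.1%, with the fetal libraries higher in 25.3%.

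The globin HBM and genes of haem synthesis fell as well. HBM, an alpha-like globin, lay at 10.19, 10.16 and 10.03 at E55d and at 5.54, 2.16 and 5.80 at A2Y, a change of -5.63 ± 1.34 (adjusted p = 0.0018). The adult libraries differed more among themselves than the fetal ones, with the second far below the others. FECH, the ferrochelatase that inserts iron into haem, fell by 4.15, and CPOX and UROD, earlier enzymes of the pathway, fell by 4.30 and 3.30, with every fetal library above every adult one. TFRC, the transferrin receptor through which cells take up iron, lay at 8.12, 7.83 and 7.71 at E55d and at 3.81, 3.07 and 3.45 at A2Y, a change of -4.45 ± 0.67 (adjusted p = 3.4e-05). EPOR, the receptor for erythropoietin, fell by 2.47. The only erythroid gene that did not pass was HBB, the beta globin. HBB was listed at 0 in the E55d library numbered 5, beside 13.46 and 13.52 in the others, and at 10.91, 7.38 and 11.39 at A2Y. A gene of that abundance listed at 0 can be a failed estimate, and HBB was also listed at 0 in 2 of 3 W30d libraries. With all 6 libraries its change was 0.90 ± 2.99 (adjusted p = 0.81 in limma), and without the E55d library numbered 5 it was -3.6 ± 2.31 (adjusted p = 0.21).

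The erythroid genes did not decline evenly with age. The median level of the list ranged from 6.58 to 6.92 at E55d and from 4.97 to 6.37 at B0d. At W30d it was 6.99, 1.85 and 6.64 in the 3 libraries, and at A180d and A2Y it lay between 2.01 and 2.44. Thus 2 W30d libraries were at the fetal level and the second was as low as the adult ones. The spread of the model is taken from all groups. With only E55d and A2Y in the model, the adjusted p of SLC4A1 in limma was 1.4e-07, without the second W30d library it was 2.0e-10, and in both cases 9 of the list fell.

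Platelet and cell cycle genes fell too. All 8 measured members of the megakaryocyte list fell, with a median change of -1.37. NFE2, a transcription factor of megakaryocytes and red cell precursors, went from 5.01, 4.76 and 4.66 to 1.44, 1.29 and 0.84 (-3.62 ± 0.70, adjusted p = 0.00034). GP1BB, a part of the platelet receptor for von Willebrand factor, fell by 3.06, TUBB1, the platelet tubulin, fell by 1.73 and CLEC1B, the podoplanin receptor of platelets, fell by 1.47. Without the second A2Y library, 5 of the 8 passed, and without any other 1 of the 6 libraries 6 or 7. Of the 43 measured genes of cell cycle and DNA replication, 43 fell, with a median of -2.10 and a range from -3.38 to -0.79. UHRF1, which maintains DNA methylation at replication, lay at 4.92, 4.58 and 4.75 at E55d and at 1.7, 1.36 and 1.03 at A2Y, a change of -3.38 ± 0.24 (adjusted p = 1.4e-08). CENPF, a kinetochore protein, fell by 3.01, MCM2, a subunit of the replicative helicase, fell by 2.78 and TPX2, a spindle factor, fell by 2.74. In all 43 genes every fetal library was above every adult one, as in 25.3% of all genes tested. The median level of the list was 4.05, 2.64 and 3.71 in the W30d libraries, the second being again the lowest.

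Stem cell and granulocyte genes fell more often than they rose. Of 10 measured genes of stem and progenitor cells, 6 fell (60%) and 3 rose (30%), against 20.2 and 38.3% of all genes. MYB, a transcription factor of immature blood cells, went from 3.66, 3.38 and 3.38 to 1.33, 0.97 and 1.08 (-2.35 ± 0.35, adjusted p = 2.6e-05). KIT, the stem cell factor receptor, went from 4.93, 4.23 and 5.08 to 3.11, 3.13 and 2.96, whereas the myeloid factors GFI1 and SPI1 rose by 2.05 and 1.68. Of 10 measured granulocyte genes, 5 fell (50%) and 1 (10%), CEBPE, rose by 1.06. KIT and GATA2 belong to both lists, so that the counts are not independent. The median level of the granulocyte list overlapped, from 0.75 to 1.04 at E55d and from 0.46 to 1.25 at A2Y. AZU1, an antimicrobial protein of granules, was at 2.88, 2.42 and 2.64 at E55d and at 0, 0 and 0.10 at A2Y, and LTF, lactoferrin, fell by 2.42. S100A8, a calcium-binding protein of neutrophils, changed by -2.09 with an adjusted p of 0.047, which was lost when any 1 of the 6 libraries was left out.

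**Figure D2:**
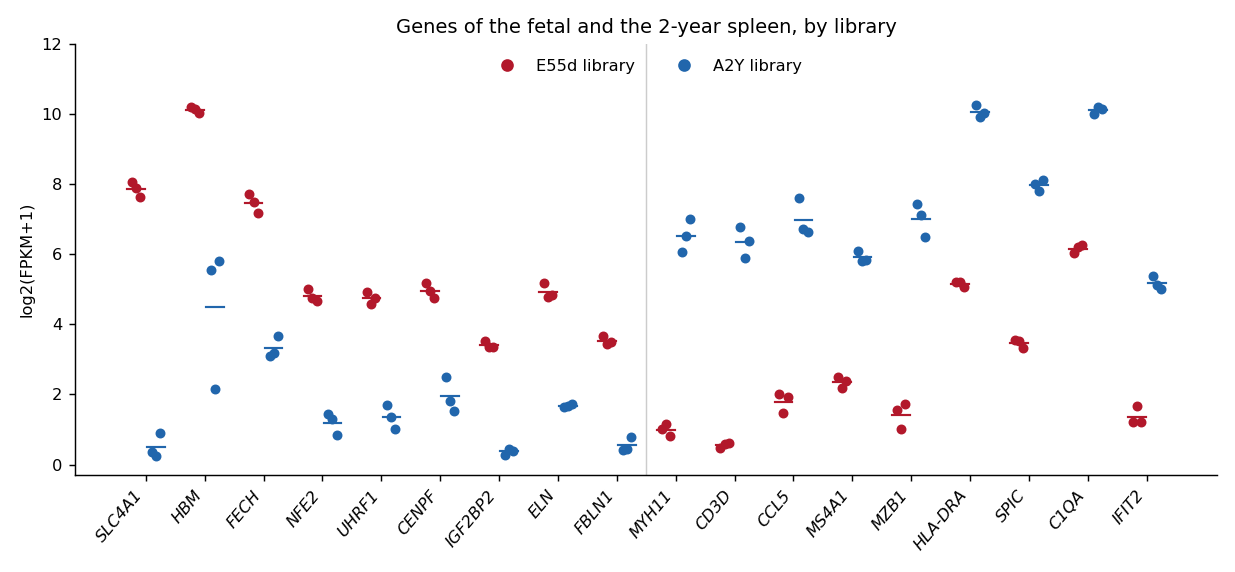
Level, log2(FPKM+1), of 18 genes in each E55d library (red points) and each A2Y library (blue points), with short lines for the group means. Left of the grey line are genes that fell, from SLC4A1 (7.87 to 0.51 on average) to FBLN1. Right of it are genes that rose, from MYH11 to IFIT2. The 18 genes were picked for large called changes, so that the lack of overlap in them follows from the choice. Over all genes tested the groups did not overlap in 71.1%.

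Genes of fetal growth and of the connective tissue fell in most cases. Of 10 measured genes of fetal growth and imprinting, 7 fell and none rose, with a median of -1.19. IGF2BP2, an RNA-binding protein of fetal tissues, went from 3.52, 3.36 and 3.36 to 0.28, 0.44 and 0.40 (-3.04 ± 0.16, adjusted p = 5.3e-10). The imprinted genes PEG3, PLAGL1 and NDN fell by 1.92, 1.88 and 1.77. The growth factor IGF1 changed by -0.44 (adjusted p = 0.076), and IGF2R by -0.40 (adjusted p = 0.13). Both passed after scaling, which gave 9 falls. The remaining member that did not pass went the other way, by 0.88. It was called as a rise with only E55d and A2Y in the model.

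Of the 27 measured genes of the extracellular matrix, 23 fell and none rose, with a median of -1.96. ELN, the elastin of elastic fibres, lay at 5.18, 4.78 and 4.85 at E55d and at 1.63, 1.68 and 1.73 at A2Y (-3.25 ± 0.25, adjusted p = 2.6e-08). FBLN1, a fibulin of the same fibres, went from 3.67, 3.44 and 3.51 to 0.43, 0.46 and 0.79, a change of -2.98. COL5A1, a fibrillar collagen, fell by 2.64 and LUM, the collagen-binding lumican, fell by 2.54. COL3A1, the reticular collagen, stayed abundant, with levels from 7.90 to 8.29 at E55d and from 5.93 to 6.11 at A2Y. The 4 members that did not pass were FN1, TNC, LAMA4 and FBLN5, with changes from -0.90 to 0.11.

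Of 6 measured patterning factors of the spleen, 4 fell and none rose. NR2F2, a nuclear receptor of mesenchyme and veins, lay at 4.99, 4.87 and 4.98 at E55d and at 2.39, 2.88 and 2.95 at A2Y (-2.2 ± 0.15, adjusted p = 1.0e-08). GATA6 fell by 0.91 and WT1, which is also a gene of the mesothelium, fell by 0.85. TLX1 changed by -0.62 (adjusted p = 0.036), a call that was lost without 5 of the 6 libraries in turn, and NKX2-3 by -0.21 (adjusted p = 0.36). After scaling, all 6 passed as lower at A2Y.

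Endothelial genes fell or did not pass with 1 exception, and smooth muscle genes rose. Of 15 measured endothelial genes 8 fell (53.3%, against 20.2% of all genes) and 1 rose (6.67%, against 38.3%). ENG, a coreceptor for growth factors of the TGF-beta family, went from 4.49, 4.27 and 4.28 to 1.7, 2.54 and 1.82 (-2.32 ± 0.27), and KDR, the main receptor for VEGF, fell by 1.53. The member that rose was LYVE1, a hyaluronan receptor of lymphatic and some sinus endothelia, by 1.18. All 11 measured smooth muscle genes rose, with a median of 1.72. MYH11, the smooth muscle myosin heavy chain, lay at 1.00, 1.14 and 0.81 at E55d and at 6.07, 6.52 and 7.0 at A2Y (5.54 ± 0.29, adjusted p = 5.4e-10). ACTG2, an actin of visceral muscle, rose by 5.51, CNN1, calponin, by 4.36 and TAGLN, transgelin, by 2.44. After scaling, 7 of the 11 passed, and ACTA2, MYLK, SMTN and CALD1, whose unscaled rises were from 0.48 to 0.75, did not.

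**Figure D3:**
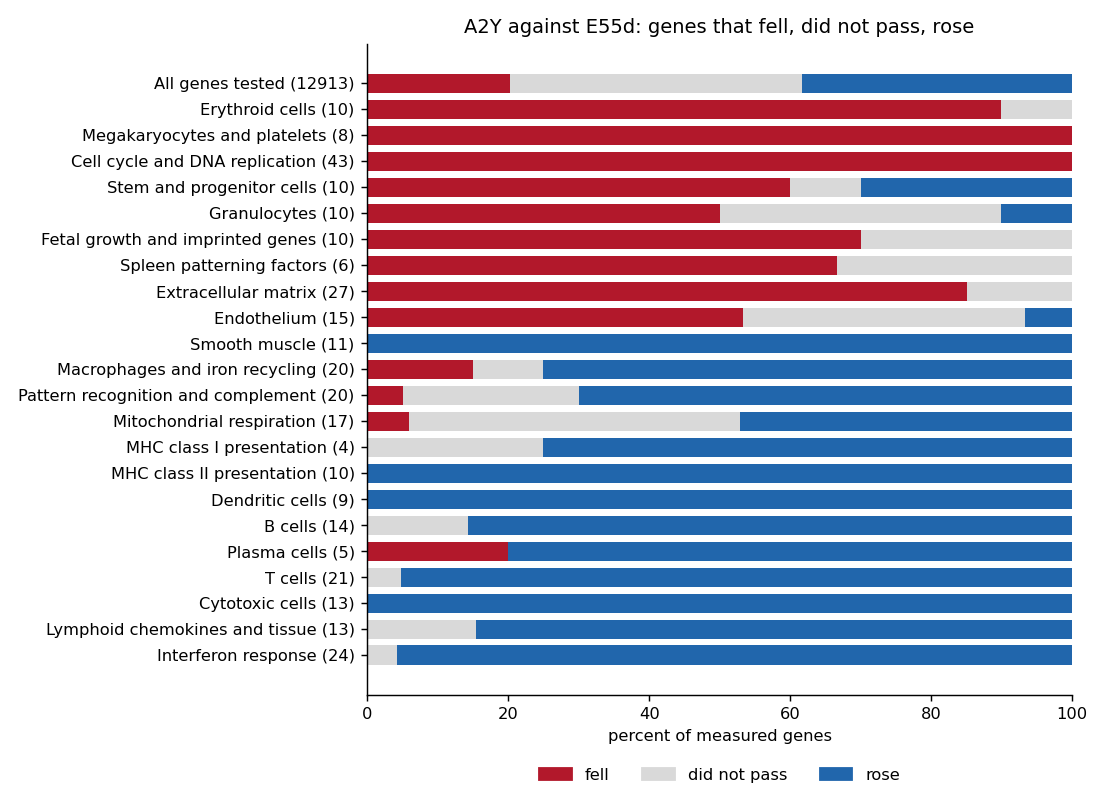
Percent of the measured genes of each list that fell (red), did not pass (grey) or rose (blue) from E55d to A2Y, with the number measured in brackets and all 12913 genes tested in the top bar (20.2% fell, 38.3% rose). The cell cycle bar is red throughout (43 of 43 genes), and the bars of smooth muscle, MHC class II, dendritic and cytotoxic cells are blue throughout.

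Genes of T cells and of cytotoxic cells were low in the fetal spleen and rose, with 3 of the 7 symbols that rose at least 32-fold (CD3D, CD247 and CCL5). Of 21 measured T cell genes 20 rose, with a median of 2.50, and GATA3 did not pass (0.35, adjusted p = 0.052). CD3D, a chain of the T cell receptor complex, lay at 0.47, 0.59 and 0.62 at E55d and at 6.78, 5.90 and 6.39 at A2Y. That is 0.476 ± 0.0844 against 83.4 ± 24.9 FPKM and a change of 5.80 ± 0.31 (adjusted p = 6.1e-10). CD247, the zeta chain of the same complex, rose by 5.27, CD2, an adhesion receptor, by 4.98 and LCK, the kinase of the receptor, by 4.56. The summed FPKM of the 21 genes was from 10.8 to 13.1 at E55d and from 308 to 535 at A2Y. CD4 rose by 1.15 and CD8A by 3.70.

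All 13 measured genes of cytotoxic cells rose, with a median of 2.97. CCL5, a chemokine of activated T and natural killer cells, went from 2.00, 1.47 and 1.92 to 7.62, 6.71 and 6.63 (5.19 ± 0.56, adjusted p = 1.1e-06). CTSW, a protease of these cells, rose by 4.96 and TYROBP, a signalling adaptor they share with myeloid cells, by 4.22. GNLY, the membrane-lysing granulysin, was at 0.28, 0.36 and 0.33 at E55d and at 5.21, 4.0 and 3.53 at A2Y. The first adult library was the highest for both CCL5 and GNLY.

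B cell and plasma cell genes rose from a low but measurable fetal level. Of 14 measured B cell genes 12 rose, with a median of 2.31. MS4A1, the CD20 surface protein, lay at 2.49, 2.18 and 2.39 at E55d and at 6.08, 5.80 and 5.85 at A2Y (3.56 ± 0.19, adjusted p = 6.1e-10). BANK1, a scaffold of B cell receptor signalling, rose by 2.93 and CD79B, a chain of that receptor, by 2.87. The members that did not pass were EBF1, an early B cell factor (0.23, adjusted p = 0.19), and VPREB3 (-0.18, adjusted p = 0.21), which passed as lower after scaling. EBF1 lay at 1.55, 1.2 and 1.68 at E55d and at 1.87, 1.56 and 1.7 at A2Y, and its groups overlapped.

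Among 5 measured plasma cell genes, 4 rose (80%, against 38.3% of all genes) and 1 fell (20%, against 20.2%). MZB1, a chaperone for antibody assembly, went from 1.54, 1.00 and 1.73 to 7.44, 7.13 and 6.49 (5.59 ± 0.33, adjusted p = 1.8e-09). XBP1, the transcription factor of secretion, rose by 1.95 and CD38, a surface enzyme, by 2.11. The member that fell was SDC1, syndecan-1, which is also found on epithelia and stroma, from 3.36, 3.0 and 3.17 to 1.96, 2.07 and 1.52. Of the 33 identifiers that rose at least 32-fold, 26 carried no symbol and are not assigned to a cell type here.

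Genes of antigen presentation rose with 1 exception, PDIA3, a chaperone of class I loading (0.18, adjusted p = 0.53). All 10 measured genes of MHC class II presentation rose, with a median of 3.05. HLA-DRA, as the name table gives the pig's class II alpha chain, lay at 5.21, 5.21 and 5.06 at E55d and at 10.25, 9.93 and 10.03 at A2Y, or 34.9 ± 2.10 against 1081 ± 126 FPKM (4.91 ± 0.24, adjusted p = 3.3e-10). SLA-DQB1, a class II beta chain, rose by 4.44, SLA-DMB, which loads peptides, by 4.07 and CTSS, the cathepsin that trims the invariant chain, by 3.66. CIITA, the master regulator of the class, went from 1.13, 0.80 and 1.04 to 3.71, 3.53 and 3.17. In all 10 genes every adult library was above every fetal one, as in 45.7% of all genes tested. In MHC class I presentation 3 of 4 measured genes rose, led by the peptide trimming enzyme ERAP1 (2.39), and after scaling CALR no longer passed.

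All 9 measured dendritic cell genes rose, with a median of 2.29. CD80 and CD86, ligands that costimulate T cells, rose by 3.45 and 2.48, and CD1B, which presents lipids, by 2.41. CCR7, the receptor that guides cells into the T zone, was at 0.39, 0.26 and 0.37 at E55d and at 3.89, 3.35 and 3.31 at A2Y. Of the 13 measured genes of lymphoid chemokines and tissue 11 rose, with a median of 1.81. TNFSF13B, the B cell survival factor BAFF, rose by 2.78, IL18 by 2.45 and IL10 by 2.2. The T zone chemokine CCL19 was already at 3.18, 3.47 and 3.16 in the fetus and rose by 2.09, and CXCR5, the follicle homing receptor, by 1.81.

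Macrophage and iron genes rose, with exceptions. Of 20 measured members, 15 rose (75%, against 38.3% of all genes) and 3 fell (15%, against 20.2%), with a median of 1.46. SPIC, the transcription factor of red pulp macrophages, lay at 3.55, 3.54 and 3.32 at E55d and at 8.01, 7.82 and 8.13 at A2Y (4.52 ± 0.25, adjusted p = 9.7e-10). C1QA, a chain of complement C1q, went from 70.9 ± 5.60 to 1109 ± 76.3 FPKM (SD, n = 3 each), and MARCO, a scavenger receptor, rose by 3.88. FTL, the ferritin light chain that stores iron, was abundant at both ages, with 1022 ± 47.6 FPKM at E55d and 4111 ± 238 at A2Y. The members that fell were TFRC, described with the erythroid genes, NCOA4, which sends ferritin to degradation and changed by -1.21, and MRC1, a mannose receptor, which went from 2.83, 2.54 and 2.89 to 1.99, 1.07 and 1.24. CP, ceruloplasmin, rose from 0.02, 0.05 and 0.03 to 1.36, 1.01 and 1.23 (adjusted p = 0.033), while its mean level was 4.49 at B0d and 2.90 at W30d. The median level of the 4 measured liver genes was 0.52, 0.55 and 7.35 in the B0d libraries. The part of this in the B0d mean of CP was not tested.

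Genes of innate defence rose in most cases. Of 24 measured interferon response genes 23 rose, with a median of 2.05, and OAS2 did not pass (0.67, adjusted p = 0.12). IFIT2, an antiviral effector, went from 1.21, 1.67 and 1.2 to 5.39, 5.12 and 5.02 (3.81 ± 0.39, adjusted p = 6.5e-07). IRF1, a transcription factor of the response, rose by 3.28, IFIT1 by 2.81 and GBP1, a guanylate-binding protein, by 2.69. After scaling, 21 of the 24 rose.

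Of 20 measured genes of pattern recognition and complement 14 rose and 1, C6, fell by 0.28, a call that was lost without the E55d library numbered 1 and without the second or the third A2Y library. CFD, complement factor D, lay at 3.98, 3.95 and 4.13 at E55d and at 7.99, 9.34 and 7.56 at A2Y (4.28 ± 0.53). TLR4, the lipopolysaccharide receptor, rose by 3.26, C2 by 2.56 and TLR10 by 2.26, whereas TLR3 and TLR5 did not pass (0.34 and 0.25).

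Genes outside the lists were among the largest changes. UBD, a ubiquitin-like protein induced by cytokines, was at 0.14, 0.23 and 0.34 at E55d and at 5.94, 6.09 and 5.97 at A2Y (5.76 ± 0.89, adjusted p = 4.1e-05). CLU, the chaperone clusterin, rose by 4.70 and MSC, the transcription factor musculin, by 4.96. MSC had its highest mean, 6.22, at B0d. Of the genes that fell, RAVER2, an RNA-binding protein, went from 4.72, 4.89 and 4.61 to 0.70, 0.43 and 0.29 (-4.27 ± 0.14, adjusted p = 8.2e-12), and its mean was already 0.64 at B0d. The erythroid genes, by contrast, still had high means at B0d, 6.41 for SLC4A1 and 9.74 for HBM. TRMO, a tRNA methyltransferase, fell by 6.04, SPINK4, a protease inhibitor, fell by 5.32 and TMCC2, a membrane protein, fell by 5.50. Their B0d means were 6.42, 6.0 and 6.21, and like SLC4A1 they were low at W30d in the second library alone, at 1.04, 1.77 and 1.78.

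Genes of general cell functions and of other tissues were also listed. Of 17 measured genes of mitochondrial respiration 8 rose (47.1%, against 38.3% of all genes) and 1 fell (5.88%, against 20.2%). Their median was 0.49, against 0.23 over all genes, and SDHD, a subunit of succinate dehydrogenase, led at 1.3. After scaling 6 rose with a median of 0.19. Of 8 housekeeping genes 3 (37.5%, against 38.3% of all genes) rose, among them YWHAZ and GAPDH by 0.84 and 0.70, and 1 fell, and the changes over the list ran from -3.91 to 1.21. GAPDH did not pass after scaling. ACTB changed by -0.33 (adjusted p = 0.33). Of the lists for other tissues, none of the 17 pancreas and 7 adipocyte symbols was measured. Only 330 of the 633 symbols of all lists were measured, so that a missing symbol does not show that the tissue was absent. The 4 liver genes measured summed to between 19.8 and 30.1 FPKM at E55d and between 42.7 and 57.9 at A2Y, where APOA1 rose by 1.21 and the others, ALB among them, did not pass. The 3 mesothelial genes summed to between 32.1 and 38.9 FPKM at E55d and between 4.83 and 5.77 at A2Y, with KRT8 at 4.81, 4.63 and 4.97 against 1.46, 0.29 and 0.94. The 3 genes of nerve and glia summed to between 12.1 and 16.3 FPKM against between 24.8 and 54.0, with STMN2 rising by 2.38 and GFRA3 falling by 1.61. No member of these lists was at 0 in all 6 libraries. The part of a different share of capsule or attached tissue in the falls of matrix and patterning genes was not tested.

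**Figure D4:**
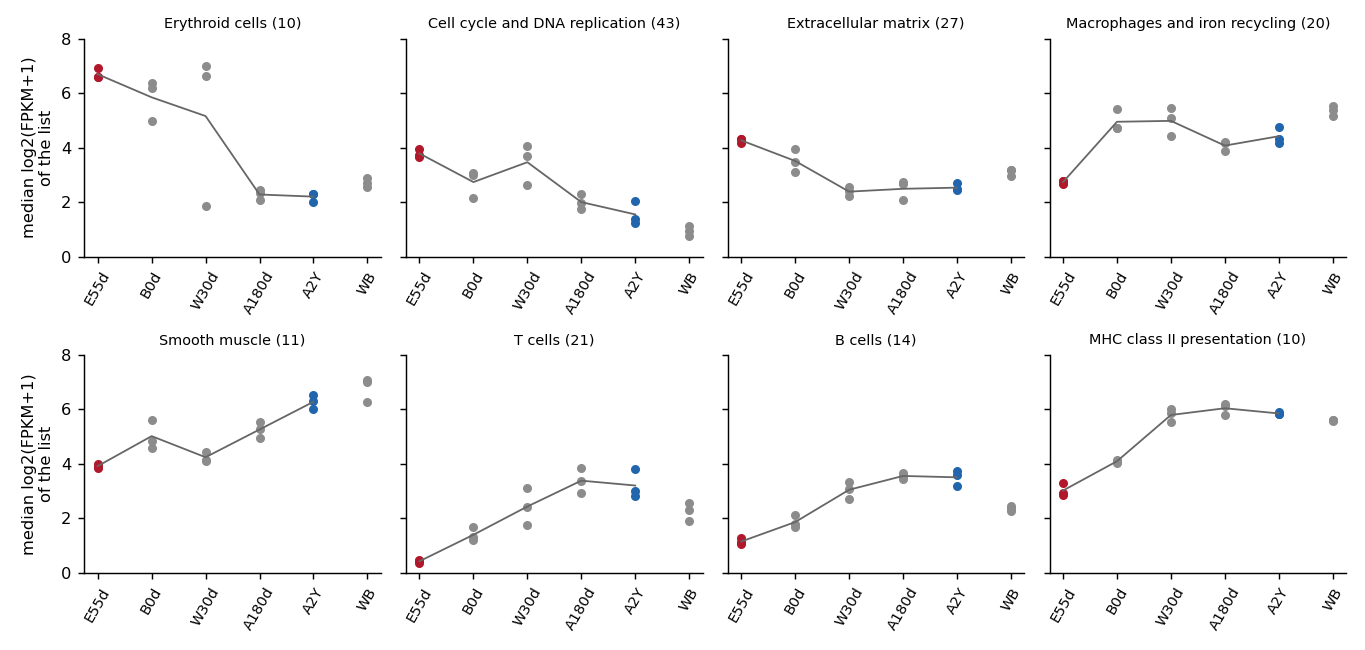
Median level, log2(FPKM+1), of the measured genes of 8 lists in each of the 18 libraries (points; E55d red, A2Y blue, other groups grey), with a line through the means of the 5 Rongchang stages and WB set apart. The erythroid median was from 6.58 to 6.92 at E55d and split at W30d (6.99, 1.85 and 6.64), while the T cell median went from between 0.37 and 0.46 at E55d to between 2.81 and 3.81 at A2Y.

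The stages between place these changes in time. The position of a gene was its stage mean as a percent of the way from its E55d mean to its A2Y mean, which is a description, as both ends define it. The median gene that rose had covered 52.8% at B0d, 74.6% at W30d and 86.9% at A180d, and the median gene that fell 53.7, 81.1 and 98.4%. By list, the position is the median over the members that passed in the more frequent direction. The macrophage and iron genes had covered 76.9% at B0d, 98.2% at W30d and 82.7% at A180d. The median level of that whole list was from 4.72 to 5.42 at B0d and from 4.17 to 4.76 at A2Y, so that it did not climb steadily. At B0d smooth muscle had covered 70.5%, but cytotoxic cells 22.3%, plasma cells 24.99% and B cells 32.8%. The erythroid list had covered 15.1% at B0d and 97.6% at A180d. In WB, of the same age as A2Y, the median gene that rose was at 93.1% and the median gene that fell at 90.1%, whereas B cell genes were at 53.2% and T cell genes at 75.2%.

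Among lncRNAs falls were more frequent than rises. Of 14129 tested, 4943 (35.0%) differed, of which 1761 (12.5%) rose and 3182 (22.5%) fell, and the median change was -0.06. Scaling used the median ratios of the protein-coding genes for the lncRNAs too, and moved the lncRNA median to -0.16. It gave 1414 rises and 4076 falls (38.9% of those tested in all). The share of calls that rose went from 35.6 to 25.8%. At least 4-fold changes were found in 58 lncRNAs that rose and 124 that fell. The identifiers stand for assembled transcripts, and FPKM shared between isoforms of a locus is uncertain.

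TU18965 gave the largest fall, from 7.92, 7.69 and 7.87 at E55d to 2.58, 2.75 and 2.59 at A2Y, or 226 ± 18.6 against 5.25 ± 0.423 FPKM (-5.18 ± 0.65, adjusted p = 7.1e-06). Its W30d levels, 7.83, 3.67 and 7.31, were again lowest in the second library. TU79903 went from 5.46, 5.23 and 5.40 to 0.14, 0.58 and 0.55, and TU10808 changed by -4.26 and TU79914 by -3.84. TU67187 was at 3.91, 4.0 and 4.77 at E55d and listed at 0 in every A2Y, A180d and WB library. TU12798, at 3.87, 3.73 and 3.81 in the fetus, was at 0.64 on average at B0d and at 0 at A2Y. TU35137 was found at 3.77, 3.41 and 3.90 at E55d, at 0 in all 12 libraries of the later Rongchang stages, and at 2.53, 2.95 and 2.87 in WB. The other two had WB means of 0 and 0.05.

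TU71293 had the largest rise, from 1.19, 1.03 and 1.10 to 4.98, 5.99 and 5.23 (4.29 ± 0.26, adjusted p = 3.0e-09). TU67200 rose by 4.03, TU26355 by 3.92, TU78568 by 3.71 and TU198 by 3.68. The largest rises were picked among called lncRNAs whose groups did not overlap, so that their lack of overlap follows from the choice. Over all lncRNAs tested the groups did not overlap in 46.0%, with A2Y higher in 18.8% and E55d higher in 27.2%. TU78568 lay at 2.10, 1.85 and 2.09 at E55d and at 5.62, 5.96 and 5.60 at A2Y. TU50529, listed at 0 in all E55d libraries, was at 3.47, 3.04 and 2.76 at A2Y, and TU17640 and TU81936 had A2Y means of 2.42 and 2.14 after 0 at E55d. TU47080, the most abundant lncRNA at both ages, was at 10.19, 10.02 and 10.18 at E55d and at 9.54, 10.41 and 9.42 at A2Y (-0.34, adjusted p = 0.20), and it passed as lower after scaling and without the second A2Y library. TU69026 fell by 1.93, TU80113 fell by 1.11 and TU40061 rose by 1.67.

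**Figure D5:**
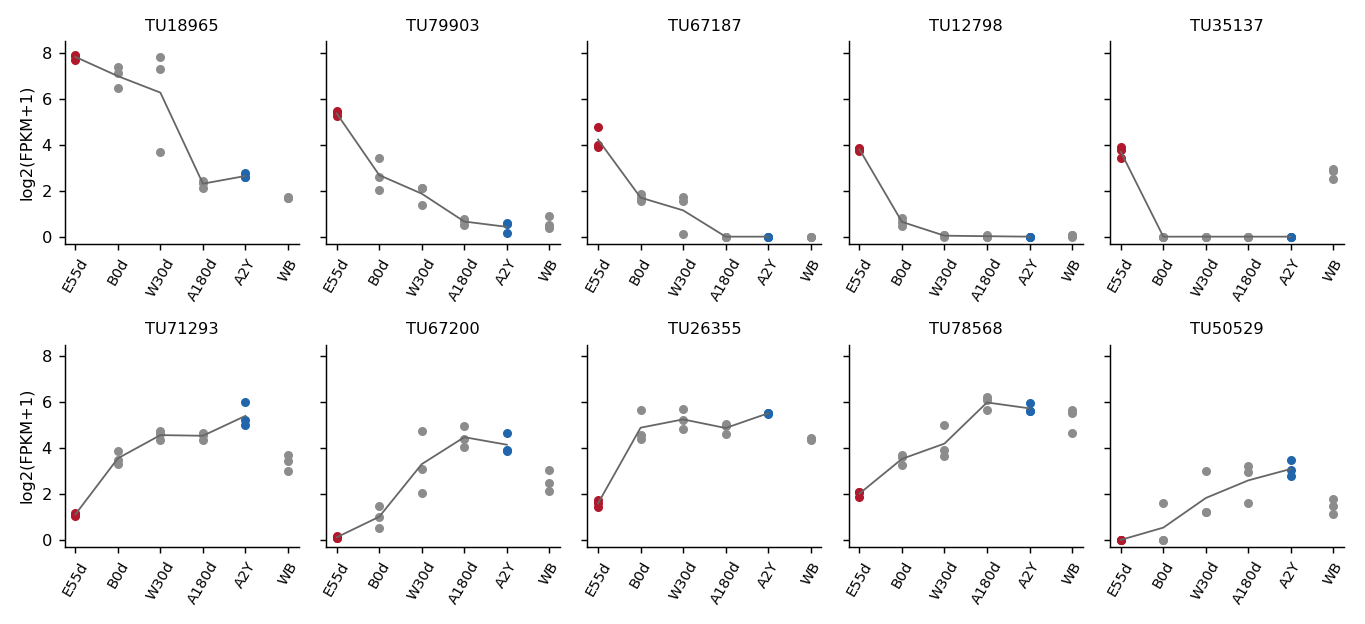
Level, log2(FPKM+1), of 10 lncRNAs in each of the 18 libraries (points; E55d red, A2Y blue, other groups grey), with a line through the means of the 5 Rongchang stages and WB set apart. The upper row holds lncRNAs that fell, with TU35137 at 0 after E55d except in WB (2.53 to 2.95), and the lower row lncRNAs that rose, with TU71293 from 1.10 to 5.40 on average.

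The number of lncRNAs detected depended on the threshold. At an FPKM above 0, 12133, 12461 and 12350 lncRNAs were detected at E55d and 12905, 13359 and 13110 at A2Y, without overlap (exact permutation test, two-sided, p = 0.1, the smallest that 3 against 3 libraries allow). At an FPKM above 1 the counts were 3560, 4349 and 4413 against 2047, 3876 and 2918, which overlapped (p = 0.2 by the exact permutation test). The A2Y libraries were sequenced more deeply than the E55d libraries per the study's sequencing summary, and its part in the detection of low lncRNAs was not tested. In all 3 E55d libraries and no A2Y library 166 lncRNAs (1.10% of all lncRNAs) were found, and 452 (3.01%) in the converse. At an FPKM above 0.1 these were 465 (3.09%) and 613 (4.08%). The libraries of the other stages and of WB did not enter these counts.

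The course of the lncRNAs is described by the same positions. The median lncRNA that fell had covered 55.5% of its change at B0d, 95.1% at W30d and 122.9% at A180d, and stood at 117.3% in WB. The median lncRNA that rose had covered 39.0% at B0d, 50.2% at W30d and 34.4% at A180d, and stood at 25.9% in WB. Of the lncRNAs that rose, 21.9% lay below their E55d mean in WB, against 4.94% of the protein-coding genes that rose. For the 423 rises with a mean FPKM above 1 over the 6 libraries, the median position in WB was 40.3%, against 94.4% for the protein-coding genes of the same kind. The 3 A2Y libraries define both the rises and the end of the scale, so that these positions are a description without a test. They were also the most deeply sequenced of the series per the study's sequencing summary. The part of depth in these positions was not tested.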

How the data were processed

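RNA of 18 pig spleens was sequenced as strand-specific paired-end libraries. Per the submitters' processing notes, reads were handled with TopHat, StringTie 1.3.3 and Cufflinks 2.2.1 on the Sscrofa10.2 build. The authors deposited 1 table of 12913 protein-coding genes and 1 of 15040 lncRNAs, both as log2(FPKM+1), where FPKM had been expected, and the values were used as deposited. The tables hold no counts, so that the reads behind each value and its counting error are unknown; per the study's methods the sex chromosomes of the reference were replaced by a later version. Empty lncRNA cells (52256) were read as 0. The 3 E55d columns, numbered 1, 5 and 6, were assigned to the group by stage and carry no replicate number, since the titles number the samples otherwise. No column of another sample was found (0).

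Features with an FPKM above 0.1 in at least 3 libraries were kept (12913 and 14129). One limma 3.58.1 model (R 4.3.3) of all 18 libraries in 6 groups, with a mean-variance trend, gave the contrast A2Y minus E55d. Benjamini-Hochberg adjustment ran over each whole table, and an adjusted p of at most 0.05 was called. Standard errors are those of that model. Values per library were compared by an exact permutation test over the 20 splits of 6 libraries. The p-values of limma rest on the spread between the 3 animals of a group, pooled over the 6 groups and drawn toward the mean-variance trend. The procedure was tested on simulated data with normal noise and few planted changes, all in features at higher levels. Data with as many changes as were called here, or with low levels, were not simulated for recovery. Tables and figures used Python 3.11.15, numpy 2.4.6, pandas 2.3.3 and matplotlib 3.10.9.

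Symbols were found for 8215 of 12913 identifiers, and 330 of the 633 symbols of 28 gene lists were measured. The comparison and the lists were chosen with earlier results of these data known. Named genes are the 12 largest rises and the 12 largest falls with a symbol and without overlap, up to 4 members per list with the largest change that passed, and the 3 most abundant per group. For lncRNAs they are the 5 largest called changes per direction without overlap, the 3 most abundant per group, and the 3 highest at 0 in the other group. The members that went against their list or did not pass, CD4, CD8A, CXCR5, CIITA, COL3A1, CP, HBB and other members outside this rule were chosen after their values were seen. Alternatives were another filter and none, a pseudocount of 0.1, scaling by the median ratio, a model of the 6 libraries only, no trend, each library left out, other detection limits, no most abundant feature and, added after seeing the data, no second W30d library. Some genes are not reported here.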

Additional observations from a re-analysis of the deposited data

How the results depend on the processing

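The counts of protein-coding calls moved by less than 1.5 times under every alternative. Over single left-out libraries they ranged from 4272 to 5021 higher and from 2216 to 2697 lower at A2Y, and for lncRNAs from 1322 to 1928 higher and from 2379 to 3317 lower. With only lncRNAs at an FPKM above 1 in at least 3 libraries, fewer were tested, with 925 higher and 2008 lower and a median change of -0.23. The median over protein-coding genes was 0.32 with a pseudocount of 0.1 and 0.021 with scaling, and that over lncRNAs was -0.16 in both cases. The difference in lncRNAs detected per library, 810 at an FPKM above 0, was 367 at an FPKM above 0.1 and -1160 at an FPKM above 1. At an FPKM above 0.1, 465 instead of 166 lncRNAs were found in all 3 E55d libraries and no A2Y library. The share of summed FPKM of the 10 most abundant protein-coding identifiers, higher by 1.75 percentage points at A2Y, was -3.50 without the most abundant one. The megakaryocyte list gave from 5 to 8 falls over left-out libraries, with 5 without the second A2Y library, and smooth muscle gave 7 rises after scaling. Over left-out libraries, ENSSSCG00000020439 ranged from -8.36 to 0.15, the latter without the first A2Y library, where it is listed at 0, and SNORA74 from -1.17 to 0.12, the latter without the second. S100A8, TLX1, CALR and GAPDH lost their calls under at least 1 alternative, and TU47080 gained one, whereas the other results named by rule kept direction and call. The cause was not tested. No paired analysis was possible because the E55d columns carry no replicate number of the labels. Without counts, the reads behind low levels are unknown.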

Other observations

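Several gene families outside the lists were chosen after their values were seen, and their counts are to be read against the 38.3% of all genes that rose and the 20.2% that fell. Of 23 ribosomal protein symbols 14 rose and none fell, with a median change of 0.62, and after scaling 9 rose with a median of 0.32. RPS16, of the small ribosomal subunit, lay at 7.5, 7.29 and 7.37 at E55d and at 9.38, 8.99 and 9.05 at A2Y. Of 43 mitochondrial ribosomal protein symbols 15 rose (34.9%) and 2 fell, against 11 and 5 after scaling. Of 20 proteasome symbols 7 rose (35%) and 5 fell (25%), against 4 and 7 after scaling, and 4 rose without the E55d library numbered 6 or without the third A2Y library. Of 147 zinc finger symbols 46 rose (31.3%) and 17 fell, and after scaling 27 rose and 38 fell. The rises of these 3 families were near the share over all genes. Of 5 measured HOX genes, HOXB3 and HOXB6 fell by 0.55 and 0.48, and the number of falls was 4 after scaling, 3 without the E55d library numbered 5, and 1 without that numbered 6 or without the third A2Y library.

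Of the 13 protein-coding genes of the mitochondrial genome, 8 fell and 2 rose, after scaling 9 fell and none rose, and without the third A2Y library 8 fell and none rose. ND4, a subunit of complex I, lay at 7.65, 7.64 and 7.19 at E55d and at 4.67, 5.49 and 5.52 at A2Y (-2.27, adjusted p = 1.4e-06 in limma). ND5, of the same complex, fell by 2.19. COX1, of complex IV, was at 11.11, 10.95 and 10.98 at E55d and at 11.4, 11.27 and 12.25 at A2Y, and ND3 went from 8.52 to 9.27 on average, 2 rises that did not pass after scaling. The nuclear genes of respiration had a median change of 0.49, against 0.23 over all genes.

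Small RNAs and identifiers without a symbol were among the most abundant in the protein-coding table. SNORD17 and SCARNA12, guide RNAs of the nucleolus and Cajal body, rose by 1.75 and 1.59, and SNORA53 fell by 2.18. ENSSSCG00000020439 lay at 17.02, 16.46 and 16.62 at E55d and at 17.01 and 16.68 in 2 A2Y libraries, and was listed at 0 in the first A2Y library. ENSSSCG00000007978 went from 14.12, 14.08 and 13.81 to 9.5, 6.51 and 10.79, with the second A2Y library the lowest, as for HBM and HBB. Of the protein-coding identifiers, 174 were listed at 0 in at least 1 of the 6 libraries, 18 of them with a mean FPKM above 10.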
